A study of Mus musculus with 18 samples.

Results

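The genes *Pim1*, *Pim2* and *Pim3* encode the PIM kinases and are 3 of the 55029 genes in the deposited count files. They were chosen by measured values, namely their counts scaled to library size (CPM) in the 18 libraries, the change of each stimulus against unstimulated cells and the interaction of IFN-γ with *E. coli*. All values of the *Pim* genes in these contrasts are therefore given as a description, and no test of them is used. PIM kinases are serine/threonine kinases that lack a regulatory domain and are active once made, so that the amount of kinase in a cell follows the synthesis and the decay of its RNA and protein. Their genes are transcribed downstream of cytokine receptors through JAK kinases and STAT factors, and in some cells through NF-κB. The kinases phosphorylate regulators of cell death, the cell cycle and translation, such as BAD, p21, p27 and 4E-BP1, and share many of these substrates with AKT. Eosinophils depend for survival on IL-5, IL-3 and GM-CSF, whose receptors share a β chain and signal through STAT5, and *Pim1* is known as a gene that these cytokines induce in eosinophils.

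RNA of mouse eosinophils was sequenced after 18 h in culture, in 5 conditions. Cells were left unstimulated or kept with heat-inactivated *E. coli*, with IFN-γ at 50 ng/ml, with IFN-γ at 50 ng/ml together with *E. coli*, or with IL-4 at 100 ng/ml. The cells came from the peritoneal cavity of C57BL/6 mice with an *Il5* transgene, which is expressed by T cells in this line and makes eosinophils abundant, and they were enriched by removing cells that carry Thy1.2 or B220. All groups therefore share the transgene, and the cells had met IL-5 in the animal before culture, while the age and sex of the mice were not stated. Each stimulus has 3 libraries, and the unstimulated cells have 3 libraries in each of 2 sets that differ in the layout of their files. The first set has 12 libraries, those with *E. coli*, IFN-γ or both and the unstimulated libraries a to c, and the second has 6, those with IL-4 and the unstimulated libraries d to f. Whether the 3 libraries of a group came from separate animals or separate cultures was not stated, so each p-value measures the spread between these libraries.

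Counts on genes per library ran from 1562034 to 2419241 in unstimulated libraries a to c. They ran from 1980073 to 2734041 with *E. coli*, from 1654831 to 2006059 with IFN-γ and from 1523808 to 1970637 with both. In the second set they ran from 3625036 to 6482289 in unstimulated libraries d to f and from 3827767 to 5909700 with IL-4. A floor of 3 counts, under which a level was not separated from 0, corresponded to 1.10 to 1.97 CPM in the first set and to 0.463 to 0.828 CPM in the second, and it covers counting error only. All *Pim* genes were above it in all 18 libraries, and all 3 passed the filter on low counts in both sets. In the first set the highest count of any gene was 4089 or a few more in each of the 12 libraries, just under the number of sequences that a molecular identifier of 6 bases allows, whereas in the second set it was 87377 to 191131. The count of *Pim1* reached between 29.5% and 73.5% of that ceiling, that of *Pim2* between 2.1% and 57.7% and that of *Pim3* between 1.59% and 5.69%. Near a ceiling, counts rise less than the RNA does, so levels were not compared between the sets. A correction of the counts for identifiers met more than once, chosen after seeing the data, is given beside the *Pim1* and *Pim2* changes below.

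The cells were checked against lists of marker genes. Of the 9 eosinophil markers, 6 to 8 were above the floor in the libraries of the first set and 9 in those of the second. Their summed level was 2892 to 5137 CPM in the first set and 5030 to 6000 CPM in the second, with the chemokine receptor *Ccr3* the most abundant in the first and the lipoxygenase *Alox15* in the second. *Epx*, which encodes the eosinophil peroxidase, was near or under the floor in the first set, with group means of 0.171 to 1.43 CPM. The 9 macrophage markers summed to 1443 to 2615 CPM in the first set and 1565 to 2667 CPM in the second, led by *Adgre1* in the first, which eosinophils also express, and by *C1qb* in the second. The 8 neutrophil markers summed to 331 to 735 CPM in the first set and 732 to 1995 CPM in the second, with *Retnlg* the most abundant, while *Elane* and *Mpo* had group means of at most 1.97 CPM and 0.560 CPM. The 7 T cell markers summed to 1.81 to 9.32 CPM over all libraries, the 5 dendritic cell markers to 3.80 to 17.9 CPM and the 5 NK cell markers to 0 to 1.00 CPM. Markers of other cell types were thus detected besides those of eosinophils. In bulk samples such as these, a change in the share of a cell type and a change in the RNA per cell cannot be told apart.

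*Pim1* (ENSMUSG00000024014) lies on the plus strand at chr17:29490753-29496112 of GRCm38, *Pim2* (ENSMUSG00000031155) on the plus strand at chrX:7878262-7883432 and *Pim3* (ENSMUSG00000035828) on the plus strand at chr15:88862186-88865726. The exons of *Pim1* overlap those of *Gm26885* on the other strand, so that reads of *Gm26885* could have been counted with it if strand was not kept. The other 2 genes overlap no annotated exon on either strand. No annotated transcript of another gene matched a *Pim* gene over at least 200 bases at 95% identity or more. Between the *Pim* genes the coding sequences were 74.3% identical for *Pim1* and *Pim3* (931 aligned bases), 69.5% for *Pim2* and *Pim3* (937 aligned bases) and 69.1% for *Pim1* and *Pim2* (917 aligned bases).

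Per kilobase of exon, *Pim1* was the most abundant of the 3 in every group. On that scale *Pim1* stood at 263 ± 10.2 CPM (SD, n = 3) in unstimulated libraries a to c, *Pim2* at 49.1 ± 3.27 CPM (SD, n = 3) and *Pim3* at 17.3 ± 2.36 CPM (SD, n = 3). In unstimulated libraries d to f the order was the same, with 299 ± 113 CPM for *Pim1*, 32.0 ± 3.33 CPM for *Pim2* and 13.8 ± 6.54 CPM for *Pim3* per kilobase (SD, n = 3). With *E. coli* the distance between the first 2 genes closed to 334 ± 38.5 CPM for *Pim1* and 295 ± 11.5 CPM for *Pim2* per kilobase (SD, n = 3). On this scale and without the correction for repeated identifiers, the difference was about as large as the SD of the *Pim1* libraries. The correction widens it, since it raised the counts in these libraries by a factor of 1.57 to 1.81 for *Pim1* and 1.29 to 1.49 for *Pim2*. With IFN-γ, *Pim2* at 19.6 ± 0.459 CPM lay under *Pim3* at 24.0 ± 5.01 CPM per kilobase, within the spread, while *Pim1* was at 253 ± 23.5 CPM (SD, n = 3). With both stimuli the values per kilobase were 357 ± 50.1, 135 ± 5.71 and 45.9 ± 5.80 CPM for *Pim1*, *Pim2* and *Pim3*, and with IL-4 they were 289 ± 13.7, 25.8 ± 2.56 and 14.9 ± 4.34 CPM (SD, n = 3). The division by exon length assumes reads along the whole transcript, which the CEL-Seq2 protocol named in the methods may not give. Without the division, *Pim1* stood at 1122 ± 130 CPM and *Pim2* at 825 ± 32.2 CPM with *E. coli* (SD, n = 3). That difference was larger than the SD of the *Pim1* libraries. *Pim1* then made up 56.1 ± 2.49% and *Pim2* 41.4 ± 2.21% of the summed level of the 3 genes with *E. coli*, where the *Pim2* part was largest (SD, n = 3).

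*Pim2* encodes the PIM kinase best known from lymphocytes, where it supports survival. Its normalized level in unstimulated libraries a, b and c was 127, 143 and 142 CPM, and in *E. coli* libraries 1 to 3 it was 853, 790 and 832 CPM. With IFN-γ it was 54.3, 53.8 and 56.2 CPM, and with IFN-γ and *E. coli* it was 397, 372 and 367 CPM. The 4 groups did not overlap, and each was separated from the next by more than the spread within groups. The order of the means was *E. coli* at 825 ± 32.2 CPM, both stimuli at 378 ± 16.0 CPM, unstimulated at 137 ± 9.13 CPM and IFN-γ at 54.8 ± 1.28 CPM (SD, n = 3).

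Against unstimulated cells, the fitted log2 fold change of *Pim2* was 2.59 (SE 0.10) with *E. coli*, a 6.02-fold higher level, and only 0.536% of the 9883 genes tested had a larger rise. With IFN-γ it was -1.32 (SE 0.11), a level lower by a factor of 2.50, and 4.15% of the genes had a larger fall. With both stimuli it was 1.47 (SE 0.10), or 2.76-fold higher. The directions of the single stimuli were thus opposite, and the joint level lay between them. Adding *E. coli* to IFN-γ gave a log2 change of 2.79 (SE 0.11), or 6.90-fold, and adding IFN-γ to *E. coli* gave -1.12 (SE 0.10), lower by a factor of 2.18. The interaction term, which measures how far the joint log2 change departs from the sum of the single ones, was 0.20 (SE 0.15), so on the log scale the effects of both stimuli on *Pim2* nearly added up. When the counts were corrected for repeated identifiers, *Pim2* changed by 3.00 with *E. coli*, by -1.35 with IFN-γ and by 1.54 with both, and the interaction was -0.12. Leaving out any 1 library kept the *E. coli* change between 2.53 and 2.64 and the IFN-γ change between -1.38 and -1.27.

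*Pim2* is also expressed by B cells, and the B cell markers moved between the groups. Of the 6 markers, 5 or 6 were above the floor in unstimulated libraries a to c, where their summed level was 217, 196 and 117 CPM, led by *Ighm* at a mean of 99.0 CPM. The sum was 40.8, 44.5 and 76.5 CPM with *E. coli*, 100, 61.5 and 58.2 CPM with IFN-γ, and 121, 134 and 128 CPM with both. *Pax5* was at 0 in at least 1 library of the *E. coli* group and of the IFN-γ group. The B cell sum was therefore lowest in the group with the highest *Pim2* level, and in the IFN-γ group both were lower than in unstimulated cells. The part of B cell RNA in the *Pim2* change with IFN-γ was not tested.

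*Pim3* encodes the family member known from work on energy metabolism and growth. Its level in unstimulated libraries a, b and c was 36.5, 41.2 and 47.9 CPM, and it was 46.9, 54.2 and 46.4 CPM with *E. coli*. With IFN-γ it was 49.8, 72.3 and 53.0 CPM, and with both stimuli it was 104, 128 and 103 CPM. Only the libraries with both stimuli stood apart from all others, while the unstimulated and the *E. coli* libraries overlapped, as did the *E. coli* and the IFN-γ libraries. In order, the means were 111 ± 14.1 CPM with both, 58.4 ± 12.2 CPM with IFN-γ, 49.2 ± 4.34 CPM with *E. coli* and 41.9 ± 5.73 CPM unstimulated (SD, n = 3), and the neighbours among the last 3 overlapped, while the IFN-γ and the unstimulated libraries did not.

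The log2 fold change of *Pim3* against unstimulated cells was 0.24 (SE 0.16) with *E. coli* and 0.49 (SE 0.17) with IFN-γ. Leaving out any 1 library gave 0.14 (without unstimulated library a) to 0.36 (without c) for *E. coli* and 0.33 (without IFN-γ library 2) to 0.61 for IFN-γ. With both stimuli it was 1.42 (SE 0.16), or 2.67-fold higher. Against IFN-γ alone the joint stimulus gave 0.93 (SE 0.16), or 1.91-fold, and against *E. coli* alone it gave 1.18 (SE 0.15), or 2.26-fold. The interaction term of *Pim3* was 0.69 (SE 0.23), a joint level 1.62-fold above the sum of the single log2 changes. Among the 3 genes it was the largest interaction, and it ranged from 0.57 without IFN-γ + *E. coli* library 2 to 0.85 without IFN-γ library 2. The sum of the 6 markers of mast cells and basophils was also highest with both stimuli. They summed to 9.69, 8.24 and 7.43 CPM in unstimulated libraries a to c, to 9.79, 6.69 and 34.6 CPM with *E. coli* and to 30.2, 14.4 and 13.1 CPM with IFN-γ. With both they summed to 35.8, 70.1 and 66.6 CPM, with 3 or 4 of the 6 markers above the floor, *Tpsb2* at a mean of 24.4 CPM, *Cma1* at 26.3 CPM, and *Mcpt4* and *Mcpt8* at 0. The macrophage markers summed to 1644 to 1828 CPM in unstimulated libraries a to c, 1443 to 1884 CPM with *E. coli*, 2301 to 2593 CPM with IFN-γ and 2106 to 2615 CPM with both. Of the 9 markers, 4 fell with *E. coli*, where 16.7% of all tested genes fell. With IFN-γ, 4 rose and 2 fell (15.6% and 16.0% of all). With both, 2 rose and 2 fell (23.9% and 25.2% of all). The eosinophil markers summed to 3842 to 5137 CPM in the unstimulated libraries and 3116 to 3533 CPM with *E. coli*. They summed to 3604 to 4445 CPM with IFN-γ and 2892 to 3275 CPM with both. The part of these cells in the *Pim3* change was not tested.

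*Pim1* encodes the kinase that IL-5 and GM-CSF are known to induce. Its level in unstimulated libraries a, b and c was 907, 845 and 901 CPM, and it was 1098, 1006 and 1262 CPM with *E. coli*. With IFN-γ it was 819, 940 and 791 CPM, and with both stimuli it was 1367, 1204 and 1031 CPM. The libraries with *E. coli*, alone or with IFN-γ, were all above those without it, while the groups within each of these pairs overlapped. The means were 1201 ± 168 CPM with both, 1122 ± 130 CPM with *E. coli*, 884 ± 34.2 CPM unstimulated and 850 ± 79.2 CPM with IFN-γ (SD, n = 3), and only the step between the second and the third was wider than the spread. The summed neutrophil markers split the libraries in the same way, but were lower where *Pim1* was higher. They summed to 331 to 425 CPM with both, 341 to 403 CPM with *E. coli*, 551 to 688 CPM unstimulated and 625 to 735 CPM with IFN-γ. Most of this sum was *Retnlg*, with means of 312, 287, 584 and 615 CPM in the same order. Of the 3 neutrophil markers tested, 1 rose and 1 fell with *E. coli* (13.5% and 16.7% of all tested genes did). With both stimuli, 2 rose and 1 fell (23.9% and 25.2% of all). The eosinophil markers summed to 2892 to 3275, 3116 to 3533, 3842 to 5137 and 3604 to 4445 CPM in the same order. The part of these cells in the *Pim1* change was not tested.

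The log2 fold change of *Pim1* was 0.34 (SE 0.12) with *E. coli*, -0.06 (SE 0.12) with IFN-γ and 0.44 (SE 0.12) with both stimuli, each against unstimulated cells. Adding *E. coli* to IFN-γ gave 0.50 (SE 0.13), adding IFN-γ to *E. coli* gave 0.10 (SE 0.12), and the interaction was 0.15 (SE 0.18). These changes were small beside those of *Pim2*. Against all 6 unstimulated libraries as 1 group, which mixes the sets, the *Pim1* values were 0.0345 for *E. coli*, -0.35 for IFN-γ and 0.18 for the joint stimulus, with an interaction of 0.49. With the correction for repeated identifiers the *Pim1* changes were 0.59 for *E. coli*, -0.19 for IFN-γ and 0.41 for both, and the change from *E. coli* to both became -0.18. Whether IFN-γ added to *E. coli* moved *Pim1* up or down thus depended on this correction, and the change was near 0 without IFN-γ + *E. coli* library 1. Leaving out any 1 library gave 0.26 to 0.42 for *E. coli*, -0.10 to 0.01 for IFN-γ, 0.36 to 0.55 for both and 0.03 to 0.24 for the interaction, the lowest interaction again without that library.

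**Figure D1:**
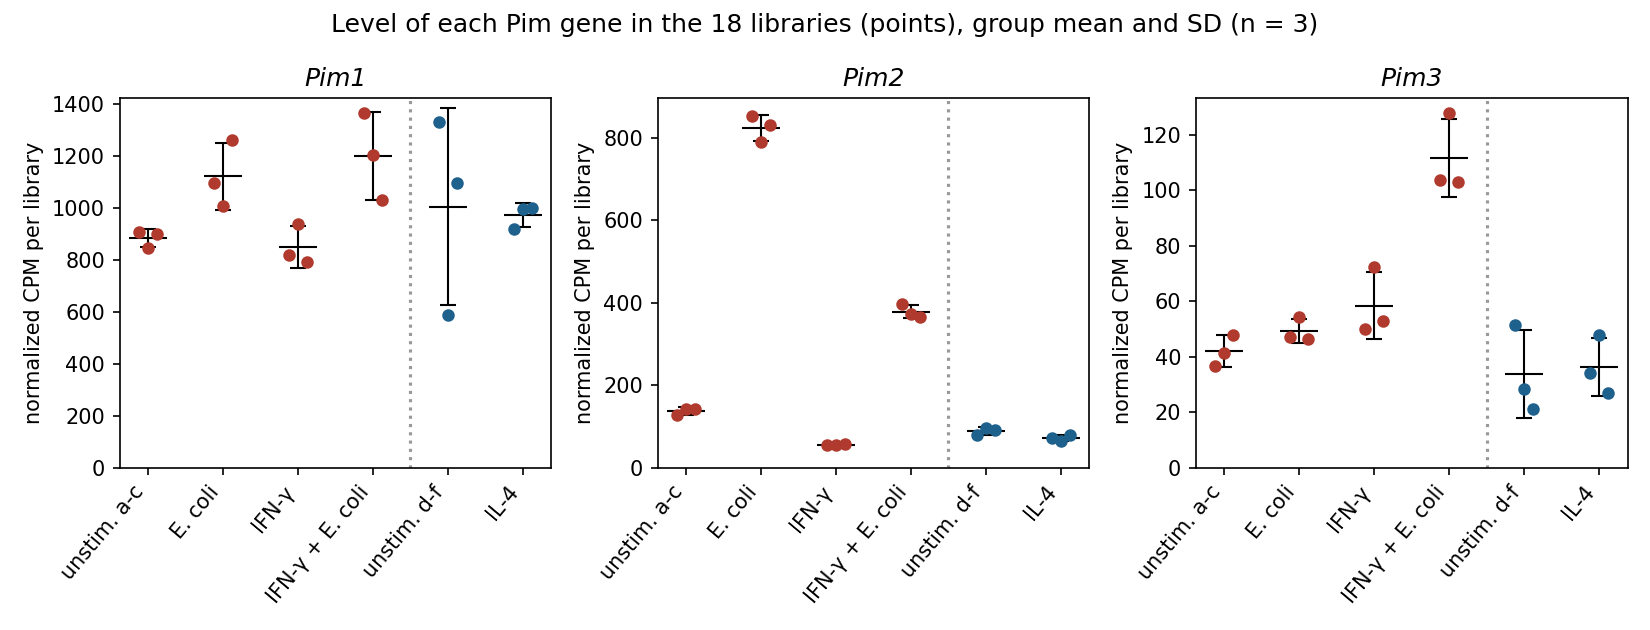
Normalized level (CPM, vertical axis) of each *Pim* gene in the 18 libraries by group (horizontal axis), with points for libraries, lines for means and bars for the SD (n = 3), and a dotted line between the 2 sets. *Pim2* separates all 4 groups of the first set, *Pim3* stands out with both stimuli at 103 to 128 CPM, and *Pim1* in unstimulated library e lies at 590 CPM, far under libraries d and f.

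*Pim1* and *Pim3* varied more between the unstimulated libraries of the second set than between those of the first. For *Pim1* the ceiling on counts in the first set limits this comparison. The SD of *Pim2* was 9.30 CPM in the second set and 9.13 CPM in the first. *Pim1* was at 1332, 590 and 1096 CPM in unstimulated libraries d, e and f, and at 919, 996 and 1001 CPM in IL-4 libraries 1 to 3. *Pim2* was at 78.9, 96.7 and 92.3 CPM in the unstimulated libraries and at 71.7, 65.3 and 79.6 CPM with IL-4. *Pim3* was at 51.4, 28.3 and 21.0 CPM in the unstimulated libraries and at 34.1, 47.7 and 27.0 CPM with IL-4. For each gene the IL-4 libraries overlapped the unstimulated ones, and unstimulated library e was low for *Pim1* and high for *Pim2* within its group. Library e also stood apart over all genes, with a chi-square per gene between 2 libraries of 21.4 against d and 19.8 against f, beside 7.17 between d and f and 3.51 to 4.89 between the IL-4 libraries. The means were 1006 ± 379 and 972 ± 45.9 CPM for *Pim1*, 89.3 ± 9.30 and 72.2 ± 7.15 CPM for *Pim2*, and 33.6 ± 15.9 and 36.2 ± 10.5 CPM for *Pim3*, unstimulated and with IL-4 (SD, n = 3).

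The log2 fold change with IL-4 was -0.05 (SE 0.23) for *Pim1*, -0.31 (SE 0.14) for *Pim2* and 0.14 (SE 0.31) for *Pim3*. For *Pim1* the direction rested on the unstimulated libraries, with -0.32 without library e and 0.20 without library d. The *Pim3* change was -0.13 without IL-4 library 2 and 0.56 without unstimulated library d. *Pim2* was lower with IL-4 whichever library was left out, at -0.40 to -0.25. The neutrophil markers summed to 1995, 1945 and 1676 CPM in the unstimulated libraries of this set and to 780, 809 and 732 CPM with IL-4, a drop that lay in *Retnlg* (means of 1855 and 755 CPM). The macrophage markers summed to 2148 to 2667 CPM and to 1565 to 1665 CPM, unstimulated and with IL-4. The B cell markers summed to 25.0, 23.7 and 43.4 CPM and to 64.3, 58.7 and 71.8 CPM, in the same order. The part of these markers in the *Pim* values was not tested.

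**Figure D2:**
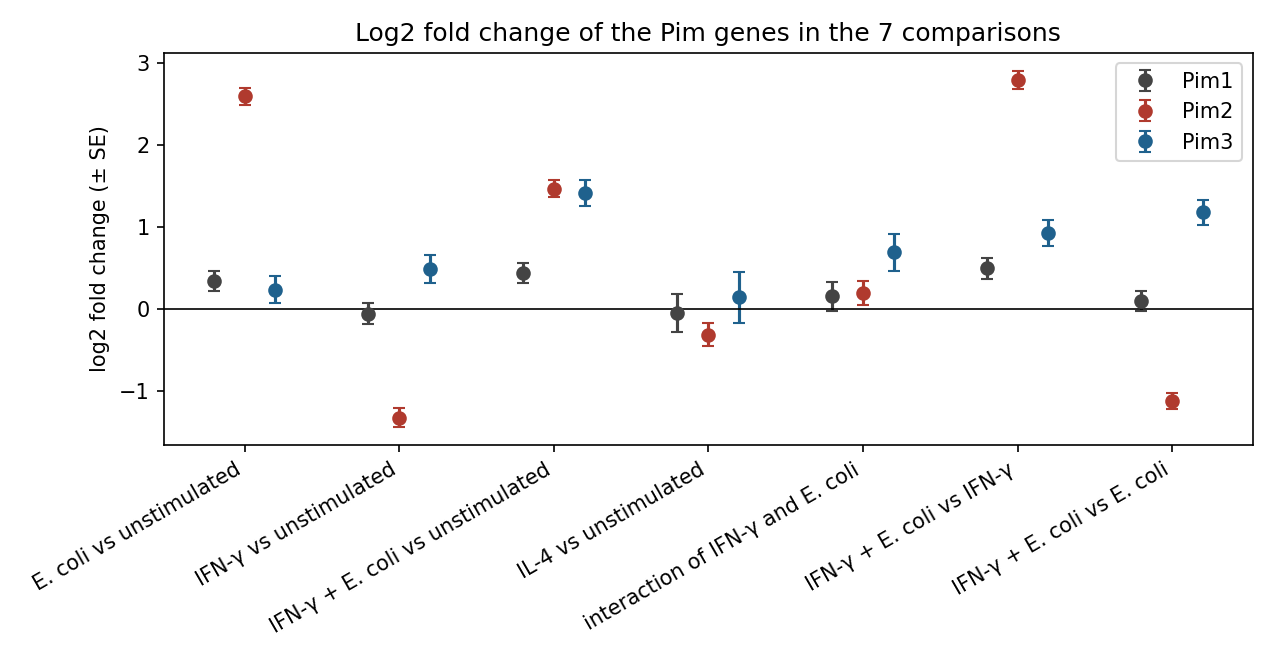
Log2 fold change (vertical axis) of the *Pim* genes in the 7 comparisons (horizontal axis), with bars for the standard error of the fit. *Pim2* has opposite signs with *E. coli* (2.59) and IFN-γ (-1.32), and *Pim3* has its largest change with both stimuli (1.42).

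The number of *Pim* genes past an adjusted p of 0.05 in edgeR is given beside the share of all tested genes past it. The choice of the genes used these contrasts, so nothing is read from the counts. With *E. coli*, *Pim1* and *Pim2* were past it (2 of 3, against 30.2% of all genes), and with IFN-γ, *Pim2* and *Pim3* (2 of 3, against 31.6%). With both stimuli all 3 were past it (against 49.0%). All 3 were past it for both stimuli against IFN-γ (against 12.2%), and *Pim2* and *Pim3* for both stimuli against *E. coli* (2 of 3, against 32.8%). With IL-4 edgeR called 0 of 3 (against 10.3%), with 1 of 3 at an unadjusted p under 0.05 and 0 by DESeq2. For the interaction edgeR called 0 of 3 (against 4.62%), again with 1 at an unadjusted p under 0.05 and 0 by DESeq2. The calls over all genes moved with single libraries in 3 of these comparisons. They went from 1089 to 483 without IL-4 library 1, from 457 to 266 without unstimulated library a for the interaction, and from 1209 to 740 without IFN-γ library 1 for both stimuli against IFN-γ.

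The balance within the family was also read from the counts inside each library, without the correction for repeated identifiers, which would raise *Pim1* more than the other 2 genes in each library of the first set. The ratio of *Pim2* to *Pim1* counts was 0.155 ± 0.0150 in unstimulated libraries a to c, 0.740 ± 0.0703 after *E. coli*, 0.0649 ± 0.00702 after IFN-γ and 0.318 ± 0.0338 after both (SD, n = 3). The ratio of *Pim3* to *Pim1* counts was 0.0474 ± 0.00657, 0.0444 ± 0.00865, 0.0682 ± 0.00810 and 0.0939 ± 0.0159 in the same order. The *Pim2* ratio thus followed *E. coli* upwards and IFN-γ downwards. The *Pim3* ratio had its highest mean with both, where its range overlapped that with IFN-γ. In the second set the ratio of *Pim2* to *Pim1* was 0.103 ± 0.0547 in unstimulated cells and 0.0744 ± 0.00764 with IL-4 (SD, n = 3), which overlapped.

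Genes with the most similar pattern were sought among 6678 genes with a mean of at least 10 CPM in both sets, by the root mean square difference of the 4 log2 fold changes against unstimulated cells. For *Pim2* the nearest genes were *Ctla2a* at 0.502, *Stfa3* at 0.549, *6530402F18Rik* at 0.724, *Pon3* at 0.740 and *Pou2f2* at 0.753, where the median over all genes was 1.67. For *Pim3* the nearest were *Foxo1* at 0.0579, *Tceal9* at 0.0900, *Ets2* at 0.127, *Tnfrsf23* at 0.172 and *Nfkbib* at 0.178, with a median of 0.820. For *Pim1* they were *Blzf1* at 0.0424, *Strap* at 0.0454, *Taf1d* at 0.0468, *Klhdc4* at 0.0723 and *Ppid* at 0.0724, with a median of 0.469. With any 1 library left out, 4 or 5 of the 5 nearest genes were still among the 5 nearest for *Pim2*, 2 to 5 for *Pim3* and 1 to 4 for *Pim1*. Between the family members the difference was 0.569 for *Pim1* and *Pim3*, 1.39 for *Pim1* and *Pim2* and 1.5 for *Pim2* and *Pim3*.

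To place the *Pim* genes in their pathway, 92 genes that act before, with or after the kinases were examined, 90 of which were tested in the first set and 88 in the second. These genes were tested by edgeR with p-values adjusted over all genes tested. Counts are uncertain, if strand was not kept, for those whose exons overlap a gene on the other strand. Among the pathway genes named in this text, these are *Bad*, *Bcl2*, *Bcl6*, *Cdc25c*, *Cdkn1a*, *Cish*, *Foxo1* and *Il4ra*. They also include *Irf1*, *Myb*, *Nfkb2*, *Numa1*, *Runx1*, *Stat3*, *Stat5a*, *Stat6* and *Zfp36*. *Socs2* has near copies elsewhere in the annotation. With *E. coli*, 29 rose and 18 fell (13.5% and 16.7% of all tested genes did), with a median log2 change of 0.08 beside -0.02 over all tested genes. With IFN-γ, 31 rose and 13 fell (15.6% and 16.0% of all), with a median of 0.26 beside -0.03. With both stimuli, 45 rose and 18 fell (23.9% and 25.2% of all), with a median of 0.35 beside -0.04. With IL-4, 17 rose and 3 fell (5.97% and 4.35% of all), with a median of 0.03 beside 0.00, and the total of 20 dropped to 8 without IL-4 library 2. For the interaction, 7 were positive and 6 negative (2.58% and 2.04% of all). These shares also stand beside the counts for the single lists below, which hold few genes and were not tested as lists.

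The receptors for the survival cytokines stand at the head of the pathway to *Pim1*. *Il5ra*, the chain that binds IL-5, fell with *E. coli* (log2 change -1.35, SE 0.14, adjusted p 7.58e-07) and with both stimuli (-1.28, SE 0.15, adjusted p 8.21e-07). With IFN-γ it was called lower (-0.37), a call lost under 12 alternatives. With IL-4 it was called higher (0.60) and *Il3ra* lower (-0.87), both lost without any 1 of the IL-4 libraries. The *Il5ra* signs with IFN-γ (0.30) and IL-4 (-0.48) reversed against all 6 unstimulated libraries as 1 group. *Csf2rb*, the shared β chain, rose with both stimuli (0.73, SE 0.15, adjusted p 0.000562), and *Csf2rb2*, a close copy that binds IL-3, rose with *E. coli* (0.85), IFN-γ (0.89) and both (1.31). Because *Csf2rb* and *Csf2rb2* share long stretches of sequence, their counts are uncertain. *Csf2rb* was also abundant enough for the ceiling to matter: the correction for repeated identifiers took its change with *E. coli* from 0.12, not called, to 1.32, called, and that from *E. coli* to both from 0.61, called, to 0.13, not called. The binding chain for IL-5 and the *Pim1* level thus went in opposite directions with *E. coli*. Of the 9 genes for these receptors and the JAK kinases, 1 rose and 3 fell with *E. coli*, 2 rose and 1 fell with IFN-γ, and 2 rose and 2 fell with both. With IL-4, 2 of the 9 rose and 1 fell. Among the 5 receptor chains for IFN-γ and IL-4, *Il4ra* rose with *E. coli* (1.10, SE 0.11, adjusted p 3.07e-07) but was not called with IFN-γ (0.19), with both (0.15) or with IL-4 (-0.07). *Il13ra1*, a partner chain in another receptor for IL-4, rose with *E. coli* (1.26), IFN-γ (3.38) and both (3.30). Of the 5 chains, 4 rose with *E. coli*, 2 rose with IFN-γ, 3 rose and 1 fell with both, and 1 rose with IL-4.

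STAT factors carry the signal from these receptors to the *Pim* promoters. *Stat3* rose with *E. coli* (0.41, SE 0.12, adjusted p 0.0104), with IFN-γ (1.27, SE 0.12, adjusted p 1.22e-07) and with both (1.46, SE 0.12, adjusted p 6.91e-09). With all 6 unstimulated libraries as 1 group, the *Stat3* change with *E. coli* reversed to -0.14. *Stat6*, the factor of IL-4 signalling, rose with IFN-γ (0.49) and with both (0.53), and its change with IL-4 was -0.01 (adjusted p 0.969). With *E. coli* it was called lower (-0.32, adjusted p 0.0206), a call lost under 5 alternatives, among them leaving out unstimulated library c or *E. coli* library 2 or 3. *Stat5a* was not called under any of the 4 stimuli, with log2 changes of -0.22, 0.32, -0.02 and 0.41 for *E. coli*, IFN-γ, both and IL-4. *Stat5b* rose with IFN-γ (0.70), which was no longer called without unstimulated library a (0.57) or without IFN-γ library 3 (0.56). *Stat5a* and *Stat5b* are near copies, so reads may have been lost or exchanged between them. *Stat3* thus rose with IFN-γ, with which *Pim2* fell.

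Genes that STAT factors can switch on were examined next, while the activity of the factors was not measured. *Cish*, a classic target of STAT5, rose with *E. coli* (0.66, SE 0.11, adjusted p 0.000108) and with both (0.54, SE 0.11, adjusted p 0.000388) and was not called with IFN-γ (-0.19). With IL-4 it was called higher (0.54), a call lost without any 1 of the IL-4 libraries and with the sign reversed (-0.64) against all 6 unstimulated libraries as 1 group. *Socs2*, also a STAT5 target, rose with *E. coli* (0.94, SE 0.13, adjusted p 1.38e-05) and fell with IFN-γ (-1.18, SE 0.13, adjusted p 1.36e-06) and with both (-1.02, SE 0.13, adjusted p 3.28e-06). Like *Pim2* it moved in opposite directions with the single stimuli, but with both it lay under the unstimulated level, where *Pim2* lay above it. *Socs3*, a target of STAT3, rose with *E. coli* (2.00), with both (2.31) and with IL-4 (1.32). *Socs1* rose with all 4 stimuli, by 0.77 with *E. coli*, 1.34 with IFN-γ, 1.30 with both and 1.52 with IL-4. *Irf1*, a gene known to respond to interferons, fell with *E. coli* (-0.76) and rose with IFN-γ (2.08), both (2.04) and IL-4 (0.97). The largest fall of this list with *E. coli* was that of *Bcl6* (-1.81). Of its 7 genes, 5 rose and 2 fell with *E. coli*, and 2 rose and 1 fell with IFN-γ. With both, 5 rose and 1 fell, and with IL-4, 4 rose.

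NF-κB is the other route to the *Pim* genes. *Nfkb2*, a subunit of the alternative pathway, rose with *E. coli* (0.94, SE 0.14, adjusted p 4.9e-05), with IFN-γ (0.74, SE 0.14, adjusted p 0.000646) and with both (1.74, SE 0.14, adjusted p 8.48e-09). Against all 6 unstimulated libraries as 1 group, *Nfkb2* had the opposite sign with *E. coli* (-0.33) and with IFN-γ (-0.53). *Rel* rose with both (1.09, SE 0.18, adjusted p 5.62e-05), as did *Relb* (0.85, SE 0.15, adjusted p 0.00012). *Nfkbia*, the inhibitor that NF-κB itself induces, rose with *E. coli* (0.91) and with both (1.24). It was also called higher with IL-4 (1.02) and with IFN-γ (0.36). The IFN-γ call was lost under 6 alternatives, and its sign reversed (-0.07) against all 6 unstimulated libraries as 1 group. *Nfkb1* was not called with *E. coli* (-0.20). Of the 6 genes of this list, 4 rose with *E. coli*, 4 rose and 1 fell with IFN-γ, 5 rose with both and 3 rose with IL-4, where 13.5%, 15.6%, 23.9% and 5.97% of all tested genes rose. The 3 calls with IL-4 (*Nfkb1*, *Nfkbia* and *Rel*) were each lost without IL-4 library 1 and without IL-4 library 2. Without unstimulated library a, *Rel* and *Relb* lost their calls with *E. coli*, and *Relb*, *Nfkbia* and *Nfkb1* lost theirs with IFN-γ. *Nfkb2* was also higher with both stimuli than with IFN-γ (1.01, adjusted p 5.58e-05) or *E. coli* alone (0.81, adjusted p 0.00011), while the step from IFN-γ to both was not called for *Relb* (0.32, adjusted p 0.175) or *Rel* (0.46, adjusted p 0.102), though for *Rel* it was called with the replicate number as a block (0.45).

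**Figure D3:**
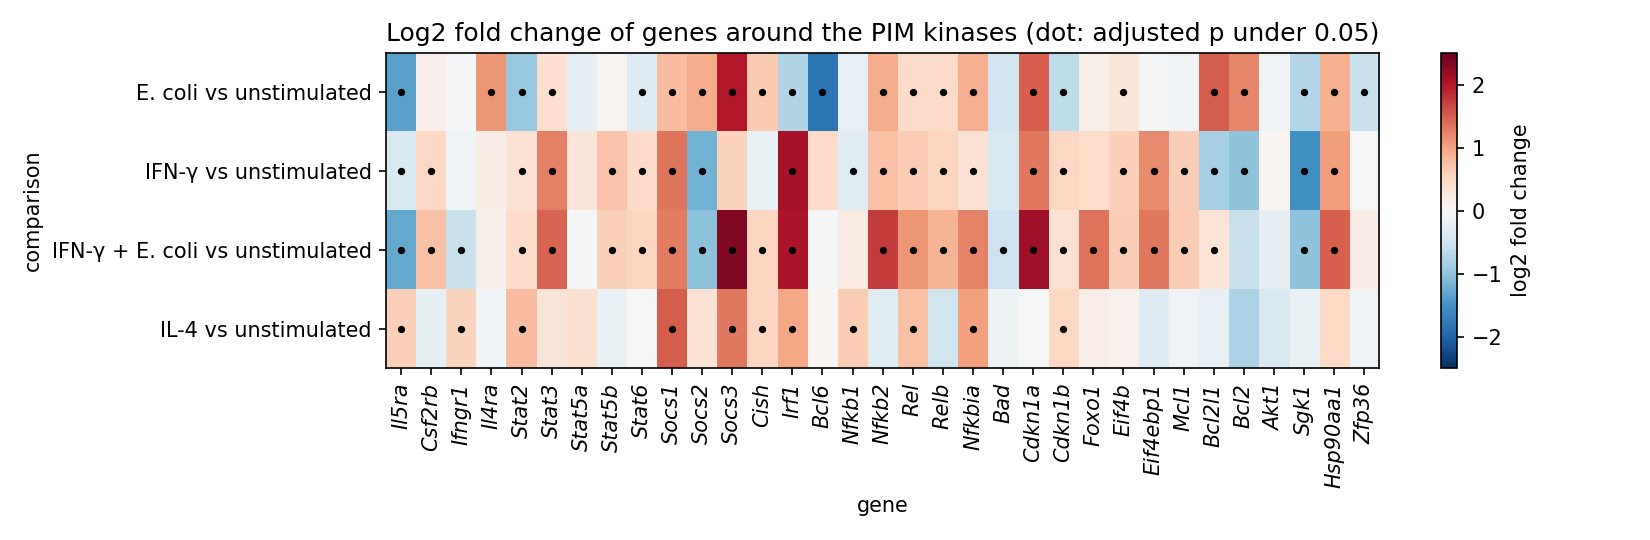
Log2 fold change (colour) of genes around the PIM kinases (horizontal axis) in the 4 comparisons with unstimulated cells (vertical axis), with a dot where edgeR's adjusted p was under 0.05. *Socs2*, *Bcl2l1* and *Bcl2* rise with *E. coli* and fall with IFN-γ, the directions of *Pim2*.

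Among the substrates, *Bad* encodes a death-promoting protein that PIM kinases inactivate. It was not called with IFN-γ (-0.41, adjusted p 0.109) or IL-4 (-0.13, adjusted p 0.695), and its change with *E. coli* was near the threshold (-0.48, adjusted p 0.0521) and was called without IFN-γ library 3 or without IFN-γ + *E. coli* library 3, at -0.51 to -0.45 over the 5 alternatives that called it. With both stimuli it fell (-0.52, SE 0.19, adjusted p 0.0333), a call lost under 6 alternatives. *Foxo1*, whose protein drives death and arrest genes, rose with both stimuli (1.35, SE 0.18, adjusted p 7.22e-06) and was the gene nearest to *Pim3* in pattern. *Foxo4* fell with *E. coli* (-0.82, SE 0.17, adjusted p 0.00118) and with both (-1.14, SE 0.19, adjusted p 6.21e-05). Of the 6 substrates in survival and stress, 2 fell with *E. coli*, 1 rose and 2 fell with IFN-γ, and 2 rose and 4 fell with both. The RNA of these substrates thus took no common direction.

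*Cdkn1a* and *Cdkn1b* encode the cell cycle inhibitors p21 and p27. *Cdkn1a* rose with *E. coli* (1.5, SE 0.14, adjusted p 2.55e-07), IFN-γ (1.32, SE 0.14, adjusted p 1.09e-06) and both (2.13, SE 0.15, adjusted p 9.01e-10). *Cdkn1b* fell with *E. coli* (-0.64, SE 0.12, adjusted p 0.000481) and rose with IFN-γ (0.52, SE 0.12, adjusted p 0.00228), though the IFN-γ change was -0.38 against all 6 unstimulated libraries as 1 group. These directions were the reverse of those of *Pim2*, but with both stimuli *Cdkn1b* rose (0.38, SE 0.12, adjusted p 0.0131), as *Pim2* did, a call lost without unstimulated library c or without IFN-γ + *E. coli* library 2 and with the sign reversed (-0.50) against all 6 unstimulated libraries. With IL-4 it was called higher (0.51), which was lost without any 1 of the IL-4 libraries. *Myc*, a transcription factor that PIM kinases stabilize, was near the floor with group means of 0.220 to 1.16 CPM and was not tested, nor was the phosphatase gene *Cdc25c*. *Myb* fell with *E. coli* (-2.70), IFN-γ (-2.37) and both (-3.02) and rose with IL-4 (3.01), at low levels with group means of 1.07 to 23.5 CPM. *Runx1* rose with *E. coli* (1.02) and fell with IFN-γ (-0.52) and both (-0.69). Of the 9 substrates in transcription and chromatin, 8 were tested in the first set, and 4 rose and 4 fell with both stimuli.

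In translation, *Eif4ebp1* encodes 4E-BP1, the brake on cap-dependent translation that PIM kinases release. It rose with IFN-γ (1.18, SE 0.13, adjusted p 1.01e-06) and with both (1.32, SE 0.13, adjusted p 9.67e-08) and was not called with *E. coli* (-0.02). *Eif4b*, an initiation factor that PIM kinases phosphorylate, rose with IFN-γ (0.60, SE 0.11, adjusted p 0.000345) and with both (0.61, SE 0.11, adjusted p 0.000158). With *E. coli* it was called higher (0.30, adjusted p 0.0436), a call lost under 7 alternatives, among them leaving out unstimulated library a or c or *E. coli* library 1 or 3. *Eif4e*, the cap-binding protein, rose with *E. coli* (0.83) and with both (0.90), and its count is uncertain because a processed copy of the gene shares its sequence. Of the 5 substrates in translation and growth, 1 rose with *E. coli*, 2 rose with IFN-γ, and 2 rose and 1 fell with both.

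The BCL2 family decides on cell death and is freed or bound by BAD. *Bcl2l1*, which encodes BCL-XL, rose with *E. coli* (1.52, SE 0.13, adjusted p 6.6e-08) and fell with IFN-γ (-0.83, SE 0.15, adjusted p 0.000338). It also rose when *E. coli* was added to IFN-γ (1.18, SE 0.15, adjusted p 3.08e-05) and fell when IFN-γ was added to *E. coli* (-1.17, SE 0.13, adjusted p 1.09e-06). In each of these 4 comparisons its direction was that of *Pim2*. With both stimuli against unstimulated cells it was called higher (0.35, SE 0.14, adjusted p 0.0448), a call lost under 10 alternatives, among them leaving out unstimulated library a or c, *E. coli* library 1 or 2, or IFN-γ + *E. coli* library 1 or 2. *Bcl2* likewise rose with *E. coli* (1.22, SE 0.19, adjusted p 8.77e-05) and fell with IFN-γ (-1.0, SE 0.26, adjusted p 0.00551), but it did not follow *Pim2* with both stimuli, where it was not called (-0.56, adjusted p 0.0655), nor was it called when *E. coli* was added to IFN-γ (0.44, adjusted p 0.378). *Mcl1* rose with IFN-γ (0.61) and with both (0.64) and was not called with *E. coli* (-0.08). *Bcl2l11*, which encodes the death-promoting BIM, rose with IFN-γ (0.79), both (1.21) and IL-4 (0.82). Of the 8 genes, 2 rose with *E. coli*, 5 rose and 2 fell with IFN-γ, 5 rose with both, and 1 rose and 1 fell with IL-4, and the share called with *E. coli* was near the 30.2% over all genes.

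Other kinases share substrates with the PIM family. *Akt1* was not called with *E. coli* (-0.07), IFN-γ (0.04) or IL-4 (-0.39). *Sgk1* fell with *E. coli* (-0.73, SE 0.13, adjusted p 0.000369), IFN-γ (-1.53, SE 0.15, adjusted p 2.32e-07) and both (-1.01, SE 0.14, adjusted p 1.08e-05). Of the 9 genes, 3 fell with *E. coli*, 1 rose and 2 fell with IFN-γ, and 1 rose and 3 fell with both. The share called with *E. coli* was near the 30.2% over all genes.

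PIM proteins are short-lived, and the chaperone HSP90 protects them from degradation while the phosphatase PP2A promotes it. *Hsp90aa1* rose with *E. coli* (0.89, SE 0.14, adjusted p 5.51e-05), IFN-γ (1.04, SE 0.14, adjusted p 9.7e-06) and both (1.49, SE 0.14, adjusted p 4.67e-08), with a count that near copies of the gene make uncertain. *Hsp90ab1* rose by 0.98, 1.03 and 1.47 in the same order. *Ppp2cb*, a catalytic subunit of PP2A, rose as well, by 0.63, 0.51 and 0.98. *Cdc37*, which encodes a partner of HSP90, fell with both (-0.41, adjusted p 0.014), a call lost under 4 alternatives, and *Ppp2cb* fell with IL-4 (-0.66, adjusted p 0.0358), a call lost without any 1 of the IL-4 libraries. Of the 6 genes of this list, 4 rose with *E. coli*, 3 rose with IFN-γ, 5 rose and 1 fell with both, and 1 fell with IL-4. PIM protein was not measured.

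*Pim* transcripts are also known to be unstable through AU-rich stretches in their 3′ untranslated region. The letters ATTTA occurred 5 times in the 1365 bases of that region in *Pim1*, 2 times in the 915 bases in *Pim2* and 5 times in the 964 bases in *Pim3*. Over 21186 genes the median was 1, and 22.0% had 5 or more while 47.5% had 2 or more. *Pim3* had the densest copies at 5.19 per kilobase, a density that 6.03% of genes reached. Among the decay factors, *Zc3h12a*, which encodes the nuclease Regnase-1, rose with *E. coli* (1.56, SE 0.15, adjusted p 3.9e-07) and with both (1.65, SE 0.16, adjusted p 9.04e-08). *Zfp36*, which encodes tristetraprolin, a protein that binds such stretches, fell with *E. coli* (-0.56, SE 0.14, adjusted p 0.00504) and was not called with IFN-γ (0.02) or both (0.18). Of the 6 decay factors, 2 rose and 1 fell with *E. coli*, and 2 rose with both.

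Promoter sequences of the 3 genes were taken from RefSeq on GRCm38.p6, with 250 bases before and 50 after the start of each transcript, as 4 windows among 32851. The *Pim1* window at chr17:29490535-29490834 was 81.3% G and C, that of *Pim3* 69.0% and that of *Pim2* 62.7%, beside a median of 52.7% over all windows, and the other *Pim1* window at chr17:29492835-29493134 was at 49.0%. On both strands, none of the 4 windows held the STAT motifs TTCNNNGAA (in 8.30% of all windows) or TTCNNNNGAA (6.95%), the κB consensus (4.51%) or the IRF motif GAAANNGAAA (3.44%). This says only that these letters are not in these windows. After the sequences had been read, the octamer ATGCAAAT and the box CCAAT were also searched on both strands. The octamer, found in 1.74% of all windows, occurred 2 times in the *Pim2* window, at 202 and 123 bases before the start. The box CCAAT, found in 37.4% of all windows, occurred 2 times in the *Pim3* window and 1 time in the *Pim2* window, and 0 times in those of *Pim1*. The windows of the 2 genes that changed most are shown so that their unlike composition can be seen, with *Pim2* at chrX:7878056-7878355 and *Pim3* at chr15:88861944-88862243, both on the plus strand. Capitals mark the octamers and the CCAAT boxes, some of them as read on the minus strand, and a match is a description of the sequence.
Pim2: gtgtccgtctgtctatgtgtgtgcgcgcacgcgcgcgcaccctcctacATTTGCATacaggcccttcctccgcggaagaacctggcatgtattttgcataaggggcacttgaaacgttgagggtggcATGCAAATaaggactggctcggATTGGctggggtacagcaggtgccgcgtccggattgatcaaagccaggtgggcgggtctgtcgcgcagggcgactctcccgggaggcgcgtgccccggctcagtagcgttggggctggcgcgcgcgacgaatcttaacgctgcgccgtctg
Pim3: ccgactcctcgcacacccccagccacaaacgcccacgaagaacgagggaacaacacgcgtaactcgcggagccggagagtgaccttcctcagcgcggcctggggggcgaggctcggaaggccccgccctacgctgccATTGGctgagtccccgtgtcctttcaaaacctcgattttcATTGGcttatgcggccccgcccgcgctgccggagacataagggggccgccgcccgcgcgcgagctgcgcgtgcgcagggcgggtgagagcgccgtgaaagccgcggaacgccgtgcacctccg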

How the data were processed

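The authors deposited raw counts per Ensembl gene for each of the 18 libraries. Per their methods, libraries were made by CEL-Seq2 and reads were aligned to GRCm38 by TopHat2 2.1.0 and counted by HTSeq 0.6.1. The labels also name fastp 0.20.1 and STAR 2.7.2a, not tied to a library, and do not state whether molecular identifiers were collapsed. The *Pim* genes and all gene lists were chosen with earlier results of these data known.

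Counts were analysed in R 4.3.3 with edgeR 4.0.16, separately for the 12 and the 6 libraries, with filterByExpr, TMM scaling, a quasi-likelihood fit by group and Benjamini-Hochberg adjustment over the 9883 and 10556 genes tested. Genes with an adjusted p under 0.05 were called, without a fold threshold. Levels are TMM-scaled CPM. Each standard error is the log2 fold change over the square root of F, an approximation. Named are the *Pim* genes, fixed pathway genes, the called gene with the largest rise and the largest fall in each list and comparison with unstimulated cells, the 5 nearest genes by pattern, and markers. Results of 1 pathway gene, which the list totals still count, are not reported here. Lines of the count files that name no gene were left out.

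Alternatives were DESeq2 1.42.0, its size factors in edgeR, no filter, at least 10 counts in every library, a 2-fold threshold, the compared libraries alone, 1 fit of all 18 libraries, all 6 unstimulated libraries as 1 group, the replicate number as a block, each library left out, and counts corrected for repeated identifiers. Counts of alternatives that lost or gained the call of a single gene leave out all 6 unstimulated libraries as 1 group. Transcripts were searched for copies with BLAST 2.17.0+. The method was tested on simulated data.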

Additional observations from a re-analysis of the deposited data

Results flagged for a closer look

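For the genes of the pathway lists named here, the effect of *E. coli* without IFN-γ differed from its effect with IFN-γ by the interaction term of edgeR (n = 3 libraries a group), which is what brings them here. No *Pim* gene was among them. The term was negative for *Il4ra* (-1.14, SE 0.15, adjusted p 0.000286), *Runx1* (-1.19, SE 0.18, adjusted p 0.000627), *Il13ra1* (-1.34, SE 0.34, adjusted p 0.0278), *Socs1* (-0.81, SE 0.17, adjusted p 0.0102), *Socs2* (-0.78, SE 0.18, adjusted p 0.0184) and *Hsp90ab1* (-0.54, SE 0.15, adjusted p 0.0397). It was positive for *Stat2* (1.05, SE 0.16, adjusted p 0.000614), *Sgk1* (1.25, SE 0.21, adjusted p 0.0016), *Irf1* (0.71, SE 0.14, adjusted p 0.0059), *Nfkb1* (0.74, SE 0.15, adjusted p 0.00668) and *Zfp36* (0.73, SE 0.20, adjusted p 0.0418).

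The *E. coli* effect of *Il4ra* was 1.10 without IFN-γ and -0.04 with it, and that of *Runx1* was 1.02 and -0.17. That of *Stat2* was -0.95 and 0.10, and that of *Sgk1* was -0.73 and 0.52. The interactions of *Il13ra1*, *Zfp36* and *Hsp90ab1* were no longer past the threshold without 1 or another of 7, 9 and 9 libraries, unstimulated library a among them in each case, where the terms were -1.28, 0.80 and -0.47, and that of *Socs2* without IFN-γ library 1, where it was -0.62. These 4 were also lost in 1 fit of all 18 libraries, at -1.35, 0.72, -0.54 and -0.78, and that of *Zfp36* with the size factors of DESeq2 in edgeR (0.72). With all 6 unstimulated libraries as 1 group, those of *Il4ra*, *Socs1* and *Nfkb1* were lost besides these 4.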

How the results depend on the processing

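Of 399 values of *Pim* log2 fold changes under the alternatives, 382 moved by less than the spread between replicates, as did 198 of 198 mean levels. Of 7411 values for named genes, 6952 kept their direction and side of the threshold, 354 lost it, 91 gained it and 14 reversed. DESeq2's size factors moved the median log2 fold change by at most 0.03. The cause of the changes below was not tested, except that a fold threshold lowers counts by construction.

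Without a filter, the *Pim2* interaction was 0.13 and 1634 genes were called with IL-4. With a 2-fold change also required, 1023 genes were called with *E. coli*, 1187 with IFN-γ, 2210 with both, 478 with IL-4, 245 for the interaction, 404 for both against IFN-γ and 1325 for both against *E. coli*, and 13, 15, 26, 4, 5, 7 and 16 pathway genes in the same order.

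With all 6 unstimulated libraries as 1 group, *Pim1* changed by 0.0345 for *E. coli*, -0.35 for IFN-γ and 0.18 for both, with an interaction of 0.49, and *Pim2* by 2.71, -1.18 and 1.63, with an interaction of 0.10. In that fit, which mixes the sets, *Stat3* (-0.14), *Nfkb2* (-0.33) and *Numa1* (0.0701) reversed with *E. coli*, and *Il5ra* (0.30), *Csf2rb* (-0.0133), *Nfkb1* (0.0368), *Nfkb2* (-0.53), *Cdkn1b* (-0.38) and *Nfkbia* (-0.0743) with IFN-γ. *Cdkn1b* (-0.50) and *Numa1* (0.25) reversed with both, and *Il5ra* (-0.48) and *Cish* (-0.64) with IL-4. It called 1662 genes with IL-4, 76 for the interaction, 300 for both against IFN-γ and 1541 for both against *E. coli*, with 4, 6 and 23 pathway genes in the last 3. In 1 fit of all 18 libraries that kept the sets apart, *Pim2* changed by 1.54 with both, 1892 genes were called with IL-4, and 8 pathway genes had an interaction.

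With counts corrected for repeated identifiers, an alternative chosen after seeing the data, *Pim1* changed by 0.59 with *E. coli* and -0.18 for both against *E. coli*. *Pim2* changed by 3.00 with *E. coli*, 1.54 with both, 2.89 for both against IFN-γ and -1.46 for both against *E. coli*, with an interaction of -0.12, and the *Csf2rb* interaction reversed to -0.82.

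With each library left out in turn, no *Pim* fold change moved by more than the spread between replicates. Leaving out 1 of 3 libraries can hardly do that, so this was no check of the fold changes. The sign with IL-4 still depended on the library for *Pim1* (-0.32 to 0.20) and *Pim3* (-0.13 to 0.56). The calls ranged from 266 to 562 genes for the interaction, from 740 to 1234 for both against IFN-γ and from 483 to 1394 with IL-4, where pathway genes ranged from 8 to 23. Where 2 libraries of a group remained, the spread was pooled over the groups.

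The stimulated libraries share replicate numbers, and deviations from the group means of same-numbered libraries correlated at -0.04 to 0.33 across genes, with 3 of 6, 4 of 6 and 2 of 6 libraries closest to their own number for the 3 pairs of stimuli. With the replicate block, 1430 genes were called for both against IFN-γ and 3447 for both against *E. coli*, and the *Pim2* changes were 2.78 and -1.13.

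Depth and spread limit *Pim3*, which had at most 287 counts in a library and, in unstimulated libraries d to f, an SD of 47.3% of its mean.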
